A study of Homo sapiens with 2 samples.

Results

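The miR-424, miR-503, miR-542 and miR-450 cluster is a group of miR hairpins encoded together on the X chromosome. Names were taken as members when their stem, without arm, asterisk or copy number, was miR-424, miR-503, miR-542, miR-450a or miR-450b, which gave 9 of the 934 mature miR names listed. The small RNA came from 2 libraries. One was made from K562, a chronic myelogenous leukemia cell line grown without drug, and the other from K562/ADM, a stable line derived from it under rising doses of adriamycin (ADM, an anthracycline) and maintained at 1000 ng/mL. K562/ADM is a single derived line, each line had 1 library, and so the comparison is between these libraries and has no replicate check.

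Whole reads were recovered for both libraries. Summed over the 934 listed names they came to 7677738 in K562 and 6895193 in K562/ADM. These sums leave out reads that were not assigned to a listed name, so they are not the sequencing depth. The size factor by which each library was divided is the median of ratios, and "scaled reads" below are reads after that division. A ratio is that of scaled reads in K562/ADM to scaled reads in K562, with an exact 95% interval that covers counting error only. Calls of higher or lower needed both a change of at least 2-fold and an interval without 1. The blood cell miRs miR-142-3p, miR-142-5p and miR-223 had from 1712 to 351692 reads in K562 and from 1246 to 507475 in K562/ADM. The erythroid miRs miR-144, miR-451 and miR-486-5p had at least 5564 reads in each library. Of 9 miRs of other tissues, miR-122 of liver had 4 reads in each library and miR-205 of epithelium 1 and 0, while miR-9, known from neural tissue, had 7976 and 17882. Of the epithelial miRs, miR-141 was read 893 and 743 times and miR-200c 58 and 63 times. The other 4, miR-1, miR-133a, miR-206 and miR-124, had at most 22.

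A polycistronic miR cluster is transcribed as a single long RNA, from which Drosha cuts hairpins and Dicer then releases a duplex of 2 arms. As a rule one arm is loaded into Argonaute and accumulates, while the other is degraded. MiR-424 is known to accumulate as myeloid precursors become monocytes, downstream of the transcription factor PU.1, and to repress NFI-A. MiR-424 and miR-503 are counted with the extended miR-15/16 family, whose targets include cell cycle genes such as CDC25A and cyclin D1. MiR-542-3p is known to target survivin.

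The mature sequences are shown because the arms and their seeds define which members could be read as one family. They were taken from RefSeq (GRCh38.p14), are written 5′ to 3′, and have the seed, bases 2 to 8, in capitals. For 8 of the 9 listed names a sequence was matched, and miR-542-3p was not among them. The arms with more reads were
miR-424 (miR-424-5p): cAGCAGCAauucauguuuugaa
miR-503 (miR-503-5p): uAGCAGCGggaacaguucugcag
miR-450a (miR-450a-5p): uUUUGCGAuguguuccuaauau
miR-450b-5p: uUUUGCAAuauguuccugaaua
and the arms with fewer reads were
miR-424* (miR-424-3p): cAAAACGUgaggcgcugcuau
mir-503* (taken as miR-503-3p): gGGGUAUUguuuccgcugccagg
miR-542-5p: uCGGGGAUcaucaugucacgaga
miR-450b-3p: uUGGGAUCauuuugcauccaua

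No seed was shared among these sequences. With positions counted from 1 at the 5′ end, miR-503 differed from miR-424 within the first 8 bases by C1U and A8G, so that the seeds differ in their last base. The seed of miR-424 is carried by 7 mature names in RefSeq, among them miR-16 (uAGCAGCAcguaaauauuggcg), shown because it is the most abundant relative here, whereas that of miR-503 is carried by 1. The 5p arms of miR-450a and miR-450b have the same base at 16 of 22 positions, and the difference inside the seed is G7A. RefSeq gives miR-450a-5p from 2 hairpins, so its reads cannot be assigned to MIR450A1 or MIR450A2.

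On GRCh37 the 6 hairpins lie on the minus strand of chromosome X within 6.53 kb, in the order of transcription MIR424 (133680644 to 133680741), MIR503 (133680358 to 133680428), MIR542 (133675371 to 133675467), MIR450A2 (133674538 to 133674637), MIR450A1 (133674371 to 133674461) and MIR450B (133674215 to 133674292). The gap between MIR424 and MIR503 is 215 bases, while 4890 bases separate MIR503 from MIR542. The lncRNA gene MIR503HG runs from 133677149 to 133680672 on the same strand. It contains MIR503, which lies mostly in an intron and overlaps an exon by 5 bases, and its first exon overlaps 29 of the 98 bases of MIR424. MIR542 and the miR-450 hairpins lie downstream of it and in no other annotated gene.

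The cluster as a whole had more reads in K562/ADM. All 9 names together were read 1736 times in K562 and 3023 times in K562/ADM, or 1569 and 3345 scaled reads, for a ratio of 2.13 (95% interval 2.01 to 2.26). Of the reads summed over the 934 listed names they made up 0.0226% in K562 (95% interval by Clopper-Pearson 0.0216 to 0.0237). In K562/ADM they made up 0.0438% (0.0423 to 0.0454). Of the 9 names, 4 were called higher, 0 were called lower and 5 were not called. Over all 934 names 11.1% were called higher and 15.6% lower, and outside the imprinted 14q32 domain, which holds many of the lower names, the shares were 12.4% and 7.96%. Among names with at least 50 reads, 4 of the 7 members and 14.5% of the 429 names were called higher, and 24.2% of the 429 were called lower. With a name that had reads in 1 library set at 3 reads in the other, the median log2 ratio of the 7 members with at least 10 reads was 1.45, against -0.08 over the 604 names at that minimum. Over the 528 of them outside 14q32 it was 0.09. The ratio of the cluster depended on the scaling. It was 1.94 under total reads of the listed names, 1.98 under the median of ratios without 14q32 and 1.96 when scaled to miR-425. Under upper-quartile scaling the cluster had a ratio of 3.57 and 7 of its names were called higher, miR-424 among them at 3.02, but 23.9% of all names were then called higher and 10.2% lower.

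**Figure D1:**
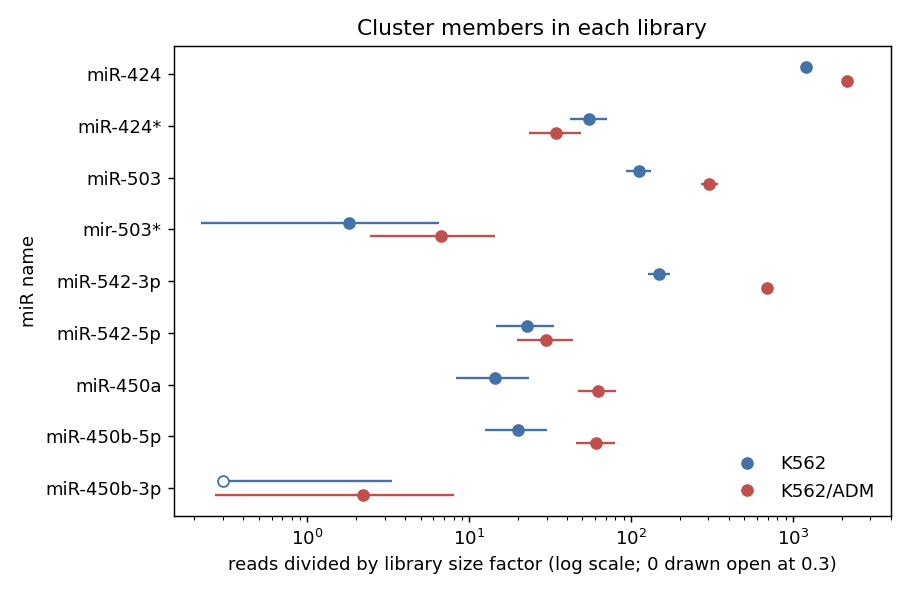
Scaled reads (x axis, log scale) of each member name (y axis) in K562 (blue) and K562/ADM (red), 1 library each. Points are the libraries and bars exact 95% counting intervals, and the open point is 0 reads. The 5 names with most reads per hairpin lie to the right in K562/ADM, by the widest margin for miR-542-3p, while miR-424* lies to the left.

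MiR-424, the most abundant member, was read 1322 times in K562 and 1945 times in K562/ADM, or 1195 and 2152 scaled reads. Its ratio was 1.80 (95% interval 1.68 to 1.93), an interval that excluded 1 and stayed under 2, so it was not called. In the order of abundance of each library miR-424 stood at place 119 in K562 and at place 84 in K562/ADM. Of the 96 other names that reached 1000 reads in each library, those with the nearest ratio were miR-3182 at 1.795, miR-142-3p at 1.77 and miR-27a at 1.76. The 3 names nearest to it in reads summed over the libraries were miR-423-5p, with a ratio of 0.574, miR-532-5p with 1.56 and miR-18a* with 0.606.

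MiR-503, encoded 215 bases further on, was much less abundant and differed more between the libraries. It was read 123 times in K562 and 275 times in K562/ADM, so that its ratio was 2.74 (95% interval 2.21 to 3.41), and it was called higher. For each 100 reads of miR-424 there were 9.30 reads of miR-503 in K562 and 14.1 in K562/ADM. This comparison does not depend on the scaling, and the ratio of miR-503 stood 1.52 times above that of miR-424 (95% interval 1.21 to 1.92).

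The largest ratio of the cluster among names with reads in both libraries was that of miR-542-3p, which was read 165 times in K562 and 626 times in K562/ADM. It was 4.65-fold higher (95% interval 3.91 to 5.55) and moved from place 261 to place 132 in abundance. Set against miR-424 its ratio was 2.58 times as large (2.14 to 3.12), and against miR-503 it was 1.697 times as large (1.28 to 2.25).

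The miR-450 arms were the least abundant of the main arms and were both called higher. MiR-450a, from both of its hairpins together, was read 16 times in K562 and 56 times in K562/ADM, and its ratio was 4.29 (95% interval 2.42 to 8.005). For miR-450b-5p the reads were 22 and 55 and the ratio was 3.06 (1.84 to 5.27). These 2 names, which stand next to each other on the chromosome and have similar 5p sequences, did not differ in ratio beyond counting error, with 0.714 for miR-450b-5p over miR-450a (0.315 to 1.60).

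**Figure D2:**
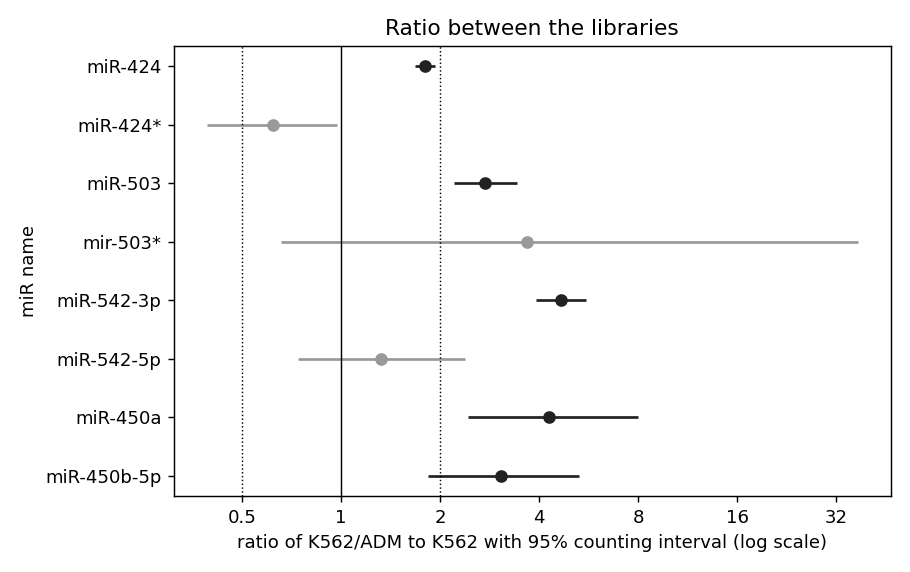
Ratio of K562/ADM to K562 (x axis, log scale) of the member names with reads in both libraries (y axis), with exact 95% counting intervals as bars. Black marks the arm with more reads of each hairpin and grey the other arm, the solid line is 1 and the dotted lines are 2-fold. MiR-503, miR-542-3p, miR-450a and miR-450b-5p lie right of the upper dotted line and miR-424 left of it.

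Ordered by ratio, the main arms ran from miR-424 through miR-503, miR-450b-5p and miR-450a to miR-542-3p. All 10 pairs of them were compared through the ratio of their ratios, and the interval excluded 1 for 5 pairs. These were the 4 pairs with miR-424, which was the lower in each, and miR-542-3p against miR-503. For miR-450b-5p over miR-424 the interval came close to 1 (1.699, 1.01 to 2.94). Among miR-503, miR-450a and miR-450b-5p no pair differed beyond counting error, and neither miR-450 name did from miR-542-3p: the interval for miR-450a over miR-542-3p was 0.506 to 1.77, which holds differences of close to 2-fold each way. No p-value was computed, since counting error leaves out the variation between libraries of one line.

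The composition of the cluster therefore differed between the libraries, which can be read without any scaling. The miR-424 hairpin, both arms counted, made up 79.7% of the cluster reads in K562 (77.7 to 81.5, exact 95% interval) and 65.4% in K562/ADM (63.6 to 67.1). The share of the miR-542 hairpin was 10.9% (9.51 to 12.5) and 21.6% (20.1 to 23.1). The miR-503 hairpin had 7.20% (6.03 to 8.52) and 9.30% (8.28 to 10.4). The miR-450a hairpins had 0.922% (0.528 to 1.49) and 1.85% (1.40 to 2.40), and miR-450b had 1.27% (0.796 to 1.91) and 1.89% (1.43 to 2.44). For miR-503, miR-450a and miR-450b alike the intervals of the libraries overlap, which does not by itself show equal shares. Grouped by position, the upstream MIR424 and MIR503 together had a ratio of 1.83 (1.72 to 1.96), and the hairpins from MIR542 to MIR450B had a ratio of 4.11 (3.54 to 4.79). In K562/ADM miR-424 held 1976 of the 2257 upstream reads and miR-542 held 653 of the 766 downstream reads. The upstream miR-503 hairpin alone had a ratio of 2.75 (2.22 to 3.43). MiR-503 did not differ from either miR-450 name beyond counting error, so the sums do not stand for each of their hairpins.

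**Figure D3:**
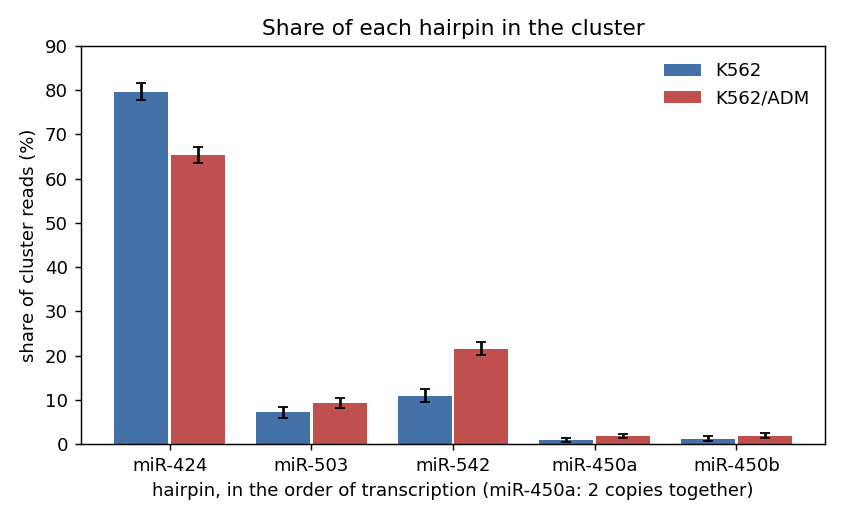
Share of the cluster reads (y axis, %) that came from each hairpin (x axis, in the order of transcription, with the 2 miR-450a copies together) in K562 (blue) and K562/ADM (red). Bars are the single libraries and error bars exact 95% binomial intervals. The miR-424 bar is lower in K562/ADM, at 65.4% against 79.7%, and the miR-542 bar higher, at 21.6% against 10.9%.

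The arms of the miR-424 hairpin differed between the libraries in opposite directions, except under upper-quartile scaling, where miR-424* stood at 1.04. MiR-424*, the 3p arm, was read 61 times in K562 and 31 times in K562/ADM, with a ratio of 0.622 (95% interval 0.390 to 0.974), while its partner miR-424 stood at 1.80. The 3p arm made up 4.41% of the hairpin's reads in K562 (3.39 to 5.63) and 1.57% in K562/ADM (1.07 to 2.22). The odds of a read coming from the 5p arm were 2.90 times as high in K562/ADM (1.84 to 4.64).

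The miR-542 hairpin, in which the 3p arm is the abundant one, showed a shift of like size. MiR-542-5p had 25 reads and 27 reads, a ratio of 1.32 (95% interval 0.739 to 2.38), against 4.65 for miR-542-3p. Its share of the hairpin's reads was 13.2% in K562 (8.70 to 18.8) and 4.13% in K562/ADM (2.74 to 5.96). The odds of the 3p arm were 3.51 times as high in K562/ADM (1.90 to 6.46).

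The other hairpins gave no estimate close enough to read. Mir-503*, which is counted here as the second arm of miR-503 although the sources do not explain the asterisk in names spelled mir, was read 2 times and 6 times, with a ratio of 3.67 (95% interval 0.657 to 37.2). For miR-223 both spellings are listed, mir-223* with 2 and 5 reads and miR-223* with 3042 and 1736. A name spelled mir may therefore not be the annotated arm, and this holds for mir-503* too. MiR-450b-3p was read 0 times in K562 and 2 times in K562/ADM, which is at or under the limit of 3 reads that a count of 0 allows, and no fold is given. The odds of the main arm changed by 0.745 for miR-503 (0.0726 to 4.25), and the upper limit for miR-450b was 13.9. The study's methods state that reads seen once were omitted, yet 100 names in K562 and 124 in K562/ADM have 1 recovered read, and the sources used here do not resolve this. Taken over the cluster, the 5 main arms had 1648 and 2957 reads, a ratio of 2.20 (2.07 to 2.34), and the 4 minor arms had 88 and 66 reads, a ratio of 0.918 (0.657 to 1.28).

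Read against other hairpins, a shift of this kind was uncommon but not particular to the cluster. By the same rule, a change in the odds of at least 2-fold with an interval that excluded 1, 2 of the 4 cluster hairpins with both arms listed shifted toward the abundant arm and 0 toward the other. Of 255 other hairpins with 1 name for each arm, 6.67% shifted toward the abundant arm and 3.14% toward the other. With at least 10 reads on each arm over both libraries required, the shares were 9.72% and 5.56% of 144 hairpins, and the 2 cluster hairpins that remained were miR-424 and miR-542. This minimum for the arms was chosen after seeing the data. With it, the odds ratio was finite for 137 of 146 hairpins, and the other 9 were all of the 14q32 cluster, with 0 reads of one arm or both in K562/ADM. In the order of the finite odds ratios, from the highest, miR-542 stood at place 8 and miR-424 at place 12, as they did among the 121 hairpins outside 14q32. With names spelled mir left out and at least 1 read on each arm, 2 of 3 cluster hairpins shifted toward the abundant arm. Of 165 other hairpins 8.48% then did, and 3.64% shifted toward the other arm.

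**Figure D4:**
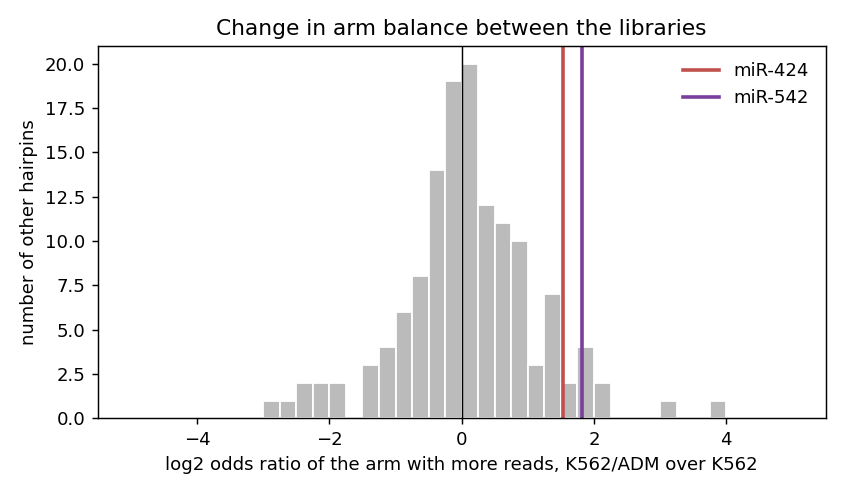
Number of hairpins outside the cluster (y axis) by the log2 odds ratio of the arm with more reads, K562/ADM over K562 (x axis), for hairpins with at least 10 reads on each arm. The 135 hairpins drawn have reads of both arms in both libraries, and 9 others without a finite value are left out. The coloured lines mark miR-424 at 1.53 and miR-542 at 1.81, to the right of most of the other hairpins.

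The names that carry the seed of miR-424 were set beside it. MiR-195 and miR-497, which are encoded together on chromosome 17, were called higher. MiR-195 was read 125 times in K562 and 345 times in K562/ADM, at a ratio of 3.38 (95% interval 2.75 to 4.18), and miR-497 9 and 28 times, at a ratio of 3.81 (1.75 to 9.18). MiR-15a had a ratio of 1.65 (1.58 to 1.73), miR-16 of 1.48 (1.45 to 1.51) and miR-15b of 0.738 (0.638 to 0.851), and none of the 3 was called. The median log2 ratio of the 5 relatives was 0.73.

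Among the names with this seed, miR-424 was a small part in both libraries. MiR-503, whose seed differs in its last base, is not counted with them. Together with the 5 relatives, miR-424 was read 21420 times in K562 and 26562 times in K562/ADM, at a ratio of 1.52 (95% interval 1.49 to 1.55). MiR-16 held 76.2% of these reads in K562 (75.6 to 76.8) and 74.2% in K562/ADM (73.7 to 74.7). The share of miR-424 was 6.17% (5.85 to 6.502) and 7.32% (7.01 to 7.64). Reads of different miRs differ in how well they ligate and amplify, so these shares are of reads and not of molecules.

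The nearest other miR cluster on chromosome X, from miR-106a to miR-363, lies 369.9 kb away, and the names assigned to it alone had few reads in either library. Of these 7 names 0 were called. MiR-19b, with 41824 and 22126 reads, and miR-92a, with 128082 and 53679, are encoded there and on another chromosome, so their reads cannot be assigned to this cluster and they are not among the 7. MiR-18b, the one with most reads, had 28 and 18, for a ratio of 0.787 (95% interval 0.410 to 1.47). MiR-106a had 4 and 3 reads, miR-20b had 2 in each, miR-363 had 0 and 1, and the names mir-18b*, miR-19b-2* and mir-19b-2* had at most 7. Of all 72 other names whose genes lie on chromosome X alone, 11 were called higher and 1 lower. That is 4 of 9 in the cluster beside 11 of 72 on the rest of the chromosome. Among all names outside 14q32, 12.4% were called higher. At 10 reads or more, the median log2 ratio was 0.46 for 46 of the 72 names and 0.09 for the 528 names outside 14q32. The 11 higher names include miR-514 at 83.3 (1 and 68 reads), miR-508-3p at 20.8 (2 and 34) and miR-509-3p at 11.0 (2 and 18). They also include miR-504, 4.07 Mb from the miR-424 hairpin, with 0 and 27 reads.

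**Figure D5:**
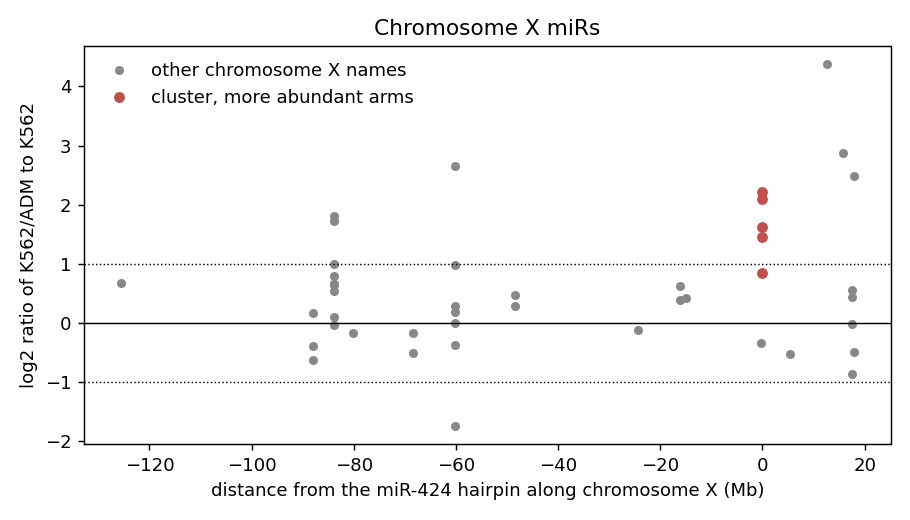
Ratio of K562/ADM to K562 on the log2 scale (y axis) by the distance from the miR-424 hairpin along chromosome X in Mb (x axis). Grey points are 40 other names placed on the chromosome that were read in each library and reached 10 reads over both, red points the main arms of the cluster, with equal values at the solid line and 2-fold at the dotted lines. MiR-503, miR-542-3p, miR-450a and miR-450b-5p lie above the upper dotted line, and 7 of the grey points lie on or above it. Names called higher but not drawn are miR-514, miR-509-3p and miR-374c, which were not placed, and miR-504, with 0 reads in K562.

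A list of miRs with known roles in myeloid and monocyte differentiation did not share one direction. Of its 19 listed names 3 were called higher, 1 lower and 15 were not called, and the median log2 ratio of the 17 with at least 10 reads was 0.18. Outside 14q32, 12.4% of all names were called higher and 7.96% lower. At 10 reads or more, 3 of 17 listed names were called higher and 1 lower, beside 16.1% and 23.3% of all 604 names, 14q32 included. The 3 higher names were miR-146a of the innate immune response at 10.1 (95% interval 8.86 to 11.7), miR-23a at 2.57 (2.42 to 2.72) and miR-24 at 2.41 (2.35 to 2.48). MiR-27a, which shares a transcript with miR-23a, had a ratio of 1.76 (1.703 to 1.81) and was not called. MiR-181a, known from lymphoid cells, was 2.67-fold lower, from 262 and 80 reads. MiR-223, the granulocyte miR, had a ratio of 0.891 (0.828 to 0.959), miR-142-5p of 1.13, miR-146b-5p of 1.64 and miR-21 of 0.818. MiR-17 and miR-20a, which are known to decline as monocytes form, had ratios of 0.952 and 0.598. The remaining names were miR-142-3p at 1.77, miR-29b at 1.20, miR-29a at 0.863, miR-181b at 0.897, miR-125b at 1.89, miR-221 at 1.12, and miR-106a and miR-222 with at most 5 reads in each library.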

How the data were processed

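One small RNA library was available for each of K562 and K562/ADM. The authors aligned reads against miRBase (Bowtie, run by miRanalyzer) and normalized each library by its DESeq size factor, and this signal is what was deposited. Their methods also state that reads seen once were omitted, but 100 names in K562 and 124 in K562/ADM have 1 recovered read, and the sources used here do not resolve this. CASAVA 1.7.0 and hg18 also appear in the submitters' processing notes. The authors' fold, log2 and p-value columns were not used. Each deposited value was divided by the smallest value above 0 of its column, and 100% came out whole within 0.001.

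With 1 library per line there are no residual degrees of freedom, so no count model was fitted and no p-value computed. Ratios have exact Clopper-Pearson intervals, and arms and pairs of names conditional exact odds ratios. Names were placed through RefSeq (26 of the 934 were not), and hairpins by matching RefSeq sequences to GRCh37 or, for MIR450A2, from GENCODE. Named are the members, the relatives by seed, the miR-106a to miR-363 cluster, the myeloid list and the names nearest to miR-424. Members and lists were chosen with earlier results of these data known.

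Alternatives were 6 other scalings, read minimums, other call rules and omission of each hairpin. The procedure was tested on simulated counts that held counting error only, so that test does not cover variation between libraries. Scaling factors for 2 alternatives came from edgeR 4.0.16 in R 4.3.3, and all other steps used scipy 1.17.1, pandas 2.3.3 and numpy 2.4.6 in Python 3.11.15, with matplotlib 3.10.9 for plots.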

Additional observations from a re-analysis of the deposited data

How the results depend on the processing

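The cluster had more scaled reads in K562/ADM under all 7 scalings. Its ratio of 2.13 became 1.94 under total reads of the listed names, 1.98 under the median of ratios without 14q32 and 1.96 when scaled to miR-425. It became 3.57 under the upper quartile, which raised every log2 ratio by 0.74. It was 3.63 without the miR-424 hairpin and 1.88 without the miR-542 hairpin. The number of names called higher was 4 under 6 of the 7 scalings, where from 9.96% to 11.1% of all names were called higher. It was also 4 with a minimum of 10 or 50 reads, beside 16.1% and 14.5%. Under the upper quartile it was 7, where 23.9% of all names were called higher. There miR-424 reached 3.02, miR-542-5p 2.21 and mir-503* 6.15, and miR-424* stood at 1.04, on the other side of 1. MiR-503, miR-542-3p, miR-450a and miR-450b-5p were called higher under each of the 7 scalings, at 2.49 or more. By fold alone or with 1 added to the scaled values 6 names were higher, beside 25.3% and 23.9% of all names. When the whole interval had to lie beyond 2-fold 3 were, without miR-450b-5p, beside 6.53% of all names. No member was called lower under any of these. The upper quartile also gave 29 higher names on the rest of chromosome X in place of 11 and 8 in place of 3 on the myeloid list. Requiring 50 reads left 36 of the 72 other chromosome X names, of which 5 were called higher, beside 14.5% of the 429 names at that minimum. Arm balance and composition do not depend on the scaling. With the minor arms left out, an alternative chosen after seeing the data, miR-424 made up 65.8% of the cluster reads in K562/ADM in place of 65.4%. No paired analysis was possible because each line has 1 library. Depth limits the miR-450 names, mir-503* and the minor arms most, with at most 61 reads in a library.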
